A study of Mus musculus with 12 samples.

Results

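The neutrophil granule and calprotectin genes described here are 10 genes: Mpo, Elane, Prtn3 and Ctsg of the primary granules, Ngp, Camp, Ltf and Mmp8 of the secondary and later granules, and S100a8 and S100a9, the 2 subunits of calprotectin. They were picked by symbol from 24421 genes counted in each library, and 10 of 10 were found. Genotype results of these same libraries were known when the 10 were picked, so their genotype differences are given as a description. Where calls, unadjusted p counts or intervals are printed for them, they describe the fit, and nothing is read from them. The libraries came from liver and lung of newborn mice (postnatal day 0, taken within an hour of birth): 3 Man1a2+/+ (WT) and 3 Man1a2-/- (null) pups bred from Man1a2+/- parents carrying the Man1a2tm1.1Ahe allele, which makes 4 groups of 3 libraries. Man1a2 encodes an alpha-mannosidase that trims N-glycans, and the allele is constitutive, so every cell type of a null pup carries it. No pup received a treatment. The labels name liver and lung tissue as a whole, so fewer neutrophils and less RNA per neutrophil cannot be told apart in any value below.

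Neutrophils fill their granules in order while they mature. The promyelocyte makes the primary (azurophil) granule proteins, the myelocyte and metamyelocyte make the secondary (specific) and then the gelatinase granule proteins, and transcripts of S100a8 and S100a9 are abundant from the myelocyte to the circulating cell. In rodents the liver is still a blood-forming organ at birth, and it holds granulocyte precursors at every stage, whereas a lung mainly holds neutrophils that arrive in the blood. C/EBP factors and PU.1 are transcription factors known to drive these genes in the granulocyte lineage.

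The promoters of the 10 genes are shown first, because they differ between the granule stages in which short motifs they hold. In RefSeq windows of GRCm38.p6, from 250 bases before to 50 bases after the start site, 3 motifs were searched: the PU.1 core GAGGAA on both strands, the loose C/EBP letters TTNNGNAA on both strands, and TATAAA, the letters of a TATA box, on the gene's own strand. A match is only a run of letters, not a bound site. The PU.1 core was present in 28.3% of all 32851 windows, the C/EBP letters in 40.7%, and TATAAA in 8.32%. GAGGAA was found in the windows of the 4 primary granule genes, and TTNNGNAA in none of them. Below, 24 bases around a match are given on the gene's strand, with the motif in capitals, and the lower-case bases are context.

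Mpo, chr11:87793551-87793574: ggagagagaGAGGAAgttgccttt
Elane, chr10:79886218-79886241: tgtcccaggGAGGAAgtagggctg
Prtn3, chr10:79879563-79879586: aactggaagGAGGAAgtgggaccc
Ctsg, chr14:56102776-56102799: ccagaaggaGAGGAAgaaaaggaa

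GAGGAA was also found for Ltf, Mmp8 and S100a8, so it does not set the primary granule genes apart. The C/EBP letters were found in the windows of Ngp, Ltf and Mmp8 of the later granules and of both calprotectin genes, and not in that of Camp.

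Ngp, chr9:110419662-110419685: ctggtttaTTGCCCAAacctcctt
Ltf, chr9:111019209-111019232: caggcctaTTGGGCAAtagggtgg
Mmp8, chr9:7558402-7558425: ggcagaagTTGCTCAAgatgtagc
S100a8, chr3:90668946-90668969: ggacttggTTAGGAAAcagaggct
S100a9, chr3:90695836-90695859: gctgggaaTTTCACAAaacatcag

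The calprotectin genes were also the only 2 members whose windows held TATAAA. In S100a8 it began at position -30 from the start site, and in S100a9 at position 0, the start site itself.

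S100a8, chr3:90669032-90669055: gctttcctcTATAAAagcagctga
S100a9, chr3:90695707-90695730: ggagctgccTATAAAtactgggct

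In the GENCODE M21 annotation of GRCm38, 2 pairs of the 10 genes are direct neighbours. Prtn3 (chr10:79874476-79883174) and Elane (chr10:79886247-79888215) are 3072 bases apart with 0 coding genes between them, and both encode serine proteases of the primary granule. S100a8 (chr3:90668978-90670035) and S100a9 (chr3:90692632-90695721) are 22596 bases apart, again with 0 coding genes between them, and on opposite strands. They lie 9.89 and 9.87 Mb from Man1a2, on the chromosome that carries the mutated allele. Ngp (chr9:110419747-110423012), Camp (chr9:109847379-109849617), Ltf (chr9:111019271-111042767) and Mmp8 (chr9:7558456-7568485) are on chromosome 9, but 8 or more coding genes lie between any 2 of them, and 1028 or more between Mmp8 and each of the other 3. Mpo (chr11:87793581-87804413) overlaps the gene Gm11505 and Prtn3 overlaps Plppr3, each on the other strand. The libraries kept strand, but the strand setting of the counting is not given in the sources used here, so counts of these overlaps are less certain.

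The 12 libraries held 26759463 to 42914295 counted reads. Levels below are counts per 1e6 counted reads (CPM), scaled by TMM over the 12 libraries together. Man1a2 itself, the targeted gene, had 87.0, 54.2 and 68.6 CPM in the 3 WT livers and 53.7, 48.2 and 50.2 CPM in the 3 null livers. In lung it had 105, 75.6 and 107 CPM in WT and 42.7, 49.8 and 50.2 CPM in null. Reads of the gene were thus lower in each null library than in each WT library of its tissue, but they were not lost, and by edgeR the gene was not called in liver (adjusted p = 0.0809) or lung (adjusted p = 0.0614). The study describes the allele as the deletion of a single early exon. By RT-qPCR it found expression of that exon lost in null liver and lung, and later exons reduced, significantly in lung only. Counts here are over the whole gene. The library labelled null lung 1 stood apart from the other 5 lung libraries. Its Sftpc level, which marks type II cells of the lung, was 26.6 CPM against 11910 to 17390 CPM in the others, and its 9 lung epithelium markers summed to 509 CPM against 20540 to 27840 CPM. Its 12 squamous epithelium markers summed to 1664 CPM against 23.4 CPM or less in the others. These epithelial markers set the library apart without use of neutrophil genes, and lung results are given with and without it. Csf3r, the receptor for granulocyte colony-stimulating factor on neutrophils, was also low there, at 0.542 CPM against 13.8 to 16.8 CPM. Leaving this library out by itself raises the null mean of genes that are low in it, such as S100a8, S100a9 and Mmp8.

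**Figure D1:**
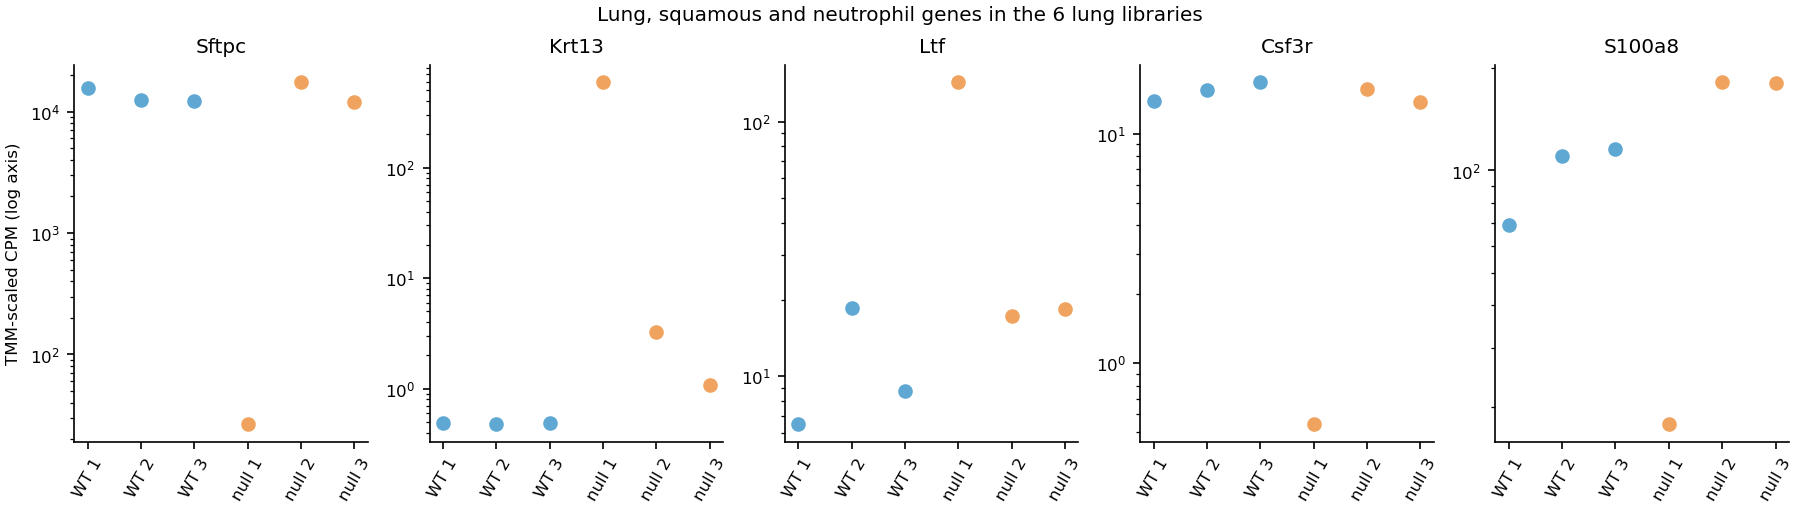
Levels (TMM-scaled CPM, log axis) of Sftpc, a marker of type II lung cells, Krt13, a keratin of squamous epithelium, and the neutrophil-expressed genes Ltf, Csf3r and S100a8 in the 6 lung libraries, 1 point per library. The library labelled null lung 1 is lowest for Sftpc (26.6 CPM), Csf3r (0.542 CPM) and S100a8 (17.8 CPM) and highest for Krt13 and Ltf (142 CPM).

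The first comparison asked how the 10 genes are set in the 2 tissues of control pups, WT liver against WT lung, which is a contrast that the choice of members did not name. All 10 genes were higher in liver, from 1.87-fold for Mmp8 to 224-fold for Elane. Among these members, apart from Mmp8, the difference was larger in the earlier stages. In the wider lists given further below, the 2 stages lay close together. Their median log2 fold change was 2.44 for other early granule genes and 2.14 for other late granule and cytosol genes. The log2 fold change was 6.38 or more in the primary granule genes, 4.13 to 4.98 in Ngp, Camp and Ltf, and 3.24 and 3.46 in the calprotectin genes, against a median of -0.04 over all genes tested. Elane and Ctsg had under 10 reads in 2 of 3 WT lung libraries each and passed the filter on low counts through the liver libraries, so their values are given without a test. The other 8 had at least 10 reads in every library, and by edgeR's quasi-likelihood test 8 of these 8 were called higher in liver (adjusted p under 0.05 and at least 1.2-fold), where 37.2% of the 15635 genes tested were called higher and 39.8% lower. In 7 of these 8 the 3 liver values lay above the 3 lung values, which was so for 38.8% of all genes, and Mmp8 was the exception.

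Mpo encodes myeloperoxidase, which makes hypochlorous acid from hydrogen peroxide and chloride. It had 136, 155 and 179 CPM in WT liver and 0.753, 0.895 and 0.640 CPM in WT lung, a log2 fold change of 7.70 ± 0.17 (SE, n = 3 per group, adjusted p = 3.09e-09 by edgeR). Elane, neutrophil elastase, had 40.8, 41.7 and 53.2 CPM in liver against 0.287, 0.184 and 0.110 CPM in lung, a log2 fold change of 7.81 ± 0.24 (SE). In both genes every liver value was far above every lung value. Prtn3, proteinase 3, had 71.0, 69.1 and 105 CPM in liver and 1.06, 0.922 and 0.971 CPM in lung, and its log2 fold change was smaller, 6.38 ± 0.22 (SE, adjusted p = 1.24e-08). Ctsg, cathepsin G, had 20.3, 27.2 and 28.6 CPM in liver and 0.233, 0.105 and 0.0662 CPM in lung, a log2 fold change of 7.45 ± 0.30 (SE). The lung values of these proteases rest on few reads, with 29 to 42 reads per WT lung library for Mpo, 5 to 16 for Elane and 3 to 13 for Ctsg.

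Some liver RNA may be present in a lung library, and albumin was used as a rough measure of it. Whether RNA of liver granulocytes comes along in the same proportion was not tested. Alb, made by hepatocytes, was at 301 CPM in WT lung 1, 0.257% of its mean in WT liver, and at 17.5 and 27.3 CPM in WT lung 2 and WT lung 3. If liver RNA had come along in that proportion, it would bring 0.403 of the 0.753 CPM of Mpo in WT lung 1, or 53.5%, but 2.62% and 5.71% of the Mpo in WT lung 2 and WT lung 3. The share in WT lung 1 was 40.5% for Elane, 19.8% for Prtn3, 27.9% for Ctsg and 0.709% to 11.96% for the other 6. Without WT lung 1 the log2 fold change was 7.70 for Mpo, 8.27 for Elane, 6.44 for Prtn3 and 8.19 for Ctsg. It was 4.29 for Ngp, 4.75 for Camp, 3.85 for Ltf, 0.68 for Mmp8, 3.04 for S100a8 and 3.30 for S100a9, each lower than with that library.

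Ngp, neutrophilic granule protein, had 409, 589 and 538 CPM in WT liver and 13.6, 35.9 and 17.0 CPM in WT lung, a log2 fold change of 4.54 ± 0.37 (SE, adjusted p = 3.02e-06 by edgeR). Camp, which encodes the precursor of the antimicrobial peptide CRAMP, had 151, 248 and 209 CPM in liver and 4.36, 11.2 and 4.08 CPM in lung, a log2 fold change of 4.98 ± 0.40 (SE, adjusted p = 2.73e-06). Ltf, the iron-binding protein lactoferrin, had 149, 227 and 207 CPM in liver and 6.47, 18.6 and 8.72 CPM in lung, a log2 fold change of 4.13 ± 0.37 (SE, adjusted p = 6.09e-06). In all 3 genes WT lung 2 was the highest lung library and WT liver 2 the highest liver library. Mmp8, neutrophil collagenase, went its own way among the 4: it had 9.71, 23.6 and 16.5 CPM in liver and 6.01, 10.98 and 9.84 CPM in lung, and the groups overlapped. Its log2 fold change was 0.90 ± 0.31 (SE, adjusted p = 0.0249), and it lost its call without WT liver 2 (0.58), without WT liver 3 (0.92) and without WT lung 1 (0.68).

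S100a8 and S100a9 form a calcium- and zinc-binding heterodimer that is among the most abundant cytosolic proteins of neutrophils. S100a8 had 563, 1316 and 894 CPM in WT liver and 69.2, 110 and 116 CPM in WT lung, a log2 fold change of 3.24 ± 0.33 (SE, adjusted p = 1.37e-05 by edgeR). S100a9 had 701, 1868 and 1092 CPM in liver and 86.3, 118 and 131 CPM in lung, a log2 fold change of 3.46 ± 0.35 (SE, adjusted p = 1.48e-05). WT liver 1 was the lowest liver library for both, and WT lung 1 the lowest lung library.

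**Figure D2:**
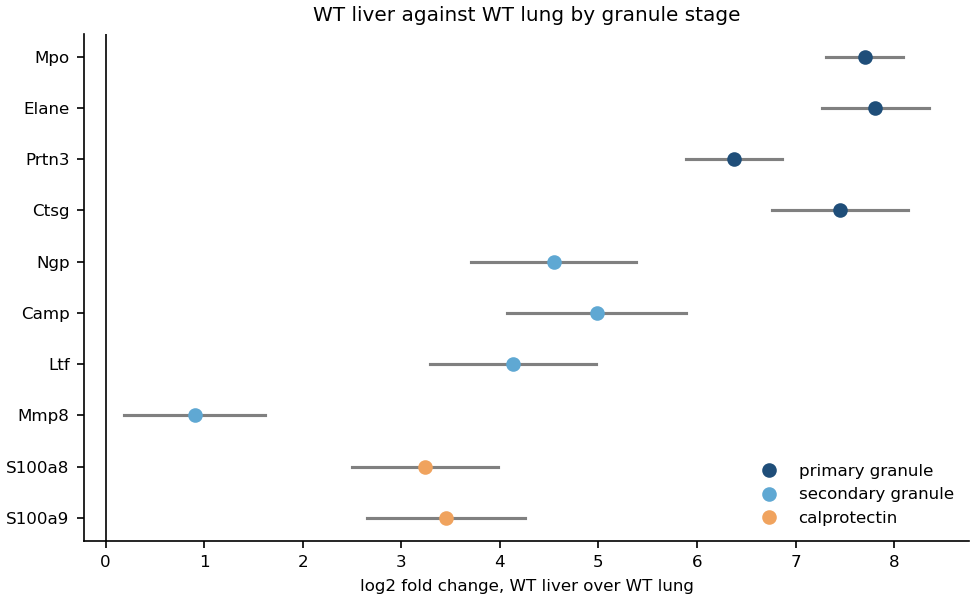
Log2 fold change of each gene, 3 WT liver over 3 WT lung libraries (edgeR), with its 95% interval as a grey line, coloured by granule stage. The primary granule genes lie between 6.38 and 7.81, Ngp, Camp and Ltf between 4.13 and 4.98, the calprotectin genes at 3.24 and 3.46, and Mmp8 at 0.90.

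Levels can be compared between genes only per length, here as CPM per kilobase of annotated exon. In WT liver the order of the medians was S100a9 (2093), S100a8 (1288), Ngp (440), Camp (276), Ltf (60.1), Mpo (45.2), Elane (42.4), Prtn3 (41.0), Ctsg (26.3) and Mmp8 (6.79). The ranges of S100a9 and S100a8 overlapped, although S100a9 was above S100a8 in 3 of 3 libraries. Ltf, Prtn3, Elane and Mpo could not be ordered, since their ranges overlapped. In WT lung the order of the medians was S100a9 (226), S100a8 (159), Ngp (13.9), Camp (5.75), Mmp8 (4.06), Ltf (2.53), Prtn3 (0.561), Mpo (0.220), Elane (0.187) and Ctsg (0.102). Mmp8 was thus last in liver and in the middle of the list in lung, above the 4 primary granule genes in each lung library. In lung, the ranges of S100a9 and S100a8, of Ngp and Camp, of Mmp8 and Ltf, and of Mpo, Elane and Ctsg overlapped.

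The second comparison asked how the 10 genes were set in null liver against WT liver. The fitted log2 fold changes lay between 0.00 and 1.15, with a median of 0.51 against 0.02 over the 14343 genes tested. The highest were Mmp8, of the later granules, Ngp and Elane. Of the 10, 3 met the call rule as higher in null (Mpo, Elane and Mmp8) and 0 as lower, where 13.5% of all genes tested met it as higher and 13.4% as lower. The values of 4 of 10 genes did not overlap between genotypes (Mpo, Elane, Ngp and Mmp8), which was so in that direction for 23.1% of all genes. Since this contrast was known when the genes were picked, nothing is read from these counts.

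In null liver, Mpo had 234, 271 and 206 CPM against 136, 155 and 179 CPM in WT liver, or 237 ± 32.2 against 157 ± 21.7 CPM as mean and SD of 3 pups. The log2 fold change was 0.59 ± 0.15 (SE), with a 95% interval of 0.25 to 0.94. Every null value was above every WT value. Elane had 71.6, 83.3 and 61.7 CPM against 40.8, 41.7 and 53.2 CPM, a log2 fold change of 0.67 ± 0.15 (SE), also without overlap, and null liver 2 was the highest library for both genes. Prtn3 had 118, 115 and 95.3 CPM against 71.0, 69.1 and 105 CPM, so WT liver 3 lay above null liver 3, and its log2 fold change was 0.42 ± 0.18 (SE). Ctsg differed least of the 4, with 28.6, 28.2 and 28.3 CPM against 20.3, 27.2 and 28.6 CPM, a log2 fold change of 0.16 with a 95% interval of -0.16 to 0.48. The 3 null libraries agreed closely for Ctsg, and WT liver 1 was the lowest library.

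Among the later granule genes, Ngp had 1020, 845 and 593 CPM in null liver against 409, 589 and 538 CPM in WT liver, with null liver 3 just above WT liver 2. Its log2 fold change was 0.67 with a 95% interval of 0.18 to 1.17. Ltf had 347, 351 and 221 CPM against 149, 227 and 207 CPM, a log2 fold change of 0.65 with an interval of 0.15 to 1.16, and null liver 3 lay below WT liver 2. In both genes null liver 3 was the lowest null library. Mmp8 had 44.3, 38.0 and 27.8 CPM against 9.71, 23.6 and 16.5 CPM, the largest difference of the 10, with a log2 fold change of 1.15 and an interval of 0.45 to 1.85. Camp had 326, 225 and 163 CPM against 151, 248 and 209 CPM, and its values were mixed between genotypes, with a log2 fold change of 0.23 and an interval of -0.38 to 0.84.

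The calprotectin genes had the smallest median log2 fold change of the 3 stages, 0.14 against 0.51 for the primary and 0.66 for the secondary granule genes. S100a8 had 1382, 1159 and 833 CPM in null liver against 563, 1316 and 894 CPM in WT liver, a log2 fold change of 0.28 with a 95% interval of -0.41 to 0.98. S100a9 had 1526, 1131 and 1010 CPM against 701, 1868 and 1092 CPM, a log2 fold change of 0.00 with an interval of -0.75 to 0.76. The 2 groups overlapped in both genes, with null liver 3 below WT liver 2 and WT liver 3. The spread among WT livers was widest for these 2 genes and Mmp8, with a ratio of the highest to the lowest library of 2.34 for S100a8, 2.66 for S100a9 and 2.43 for Mmp8, against 1.31 to 1.64 for the other 7.

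The number of members meeting the call rule in liver turned on single libraries. It was 0 of 10 without WT liver 1, 1 without WT liver 2, 1 without null liver 2 and 5 without null liver 3, which added Ngp and Ltf. The number of all genes called in liver also changed with the library left out, as given further below, so nothing is read from these counts. With DESeq2 it was 5, again with Ngp and Ltf, where 15.6% of all genes were called higher.

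**Figure D3:**
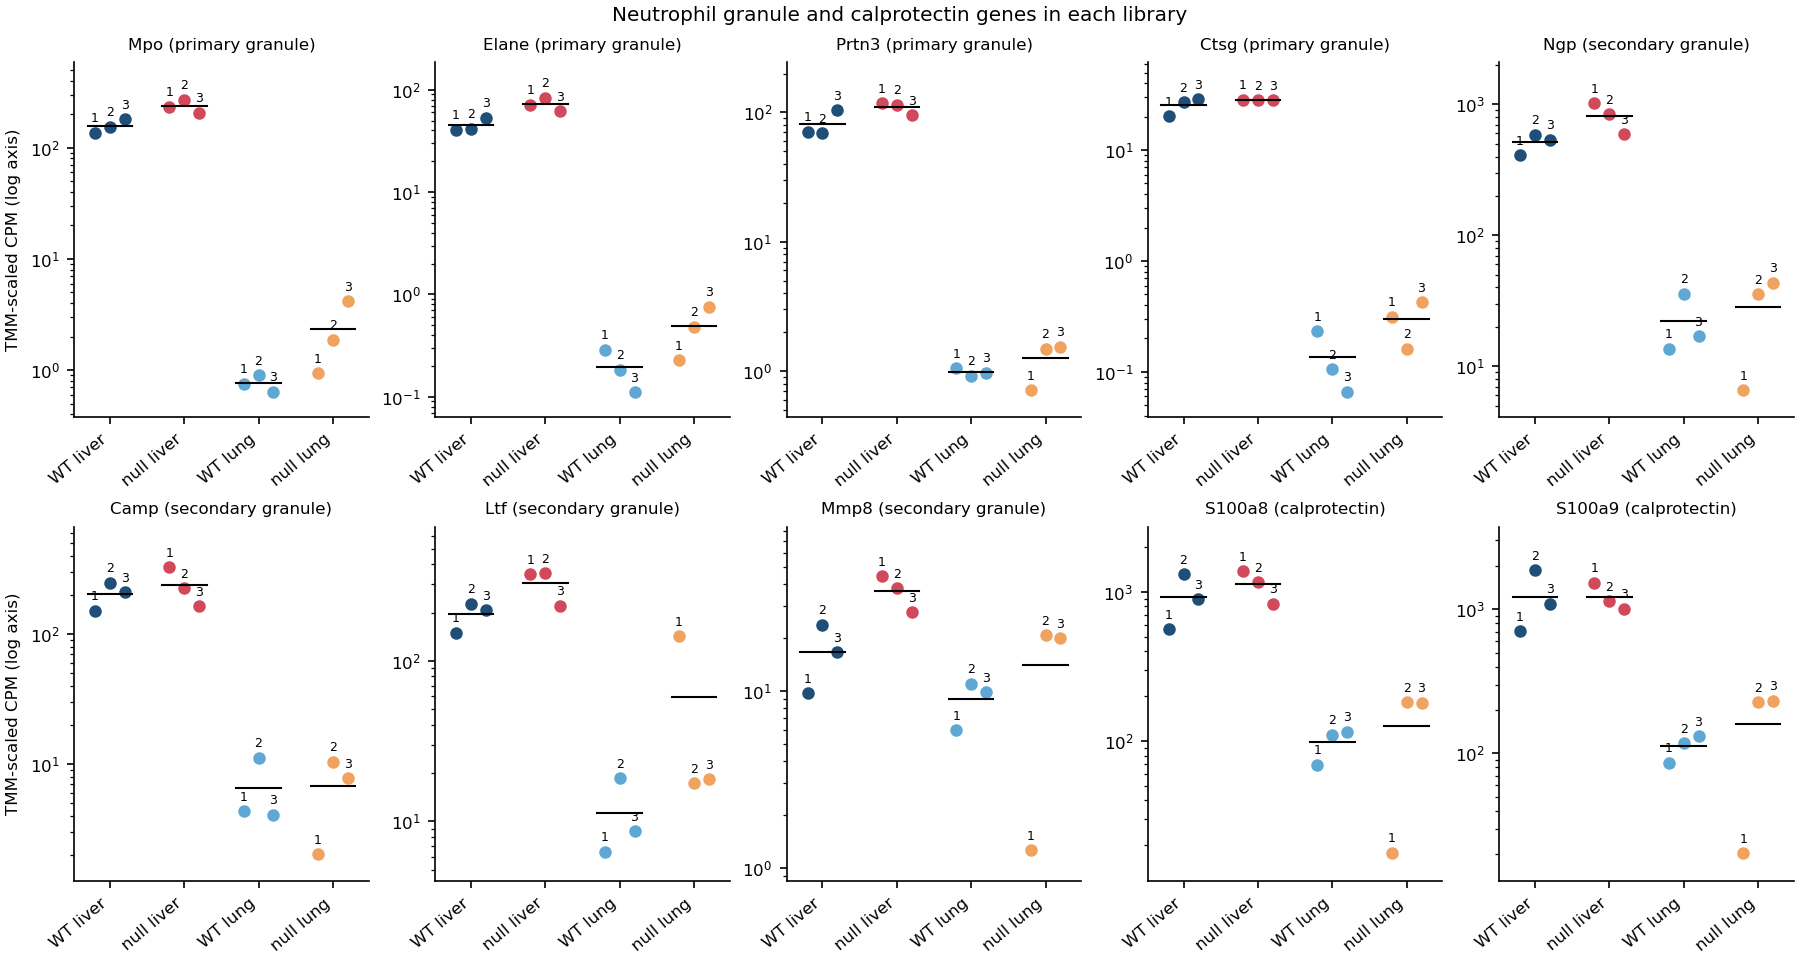
Level (TMM-scaled CPM, log axis) of each gene in the 12 libraries, with 1 point per library, its replicate number above it and a black line at the group mean. The livers sit above the lungs in every panel but that of Mmp8, and the Ltf value of null lung 1 (142 CPM) comes near the lowest liver value (149 CPM).

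The third comparison asked the same of null lung against WT lung. With the 6 libraries, 0 of 10 genes met the edgeR call rule, where 0.327% of the 15591 genes tested did. Of the 10, 2 had an unadjusted p under 0.05 (Mpo and Ltf), as had 3898 of the 15591 genes tested. DESeq2 called 1 as higher (Ltf), where it called 7.32% of all genes higher. Without the library labelled null lung 1, 5 of 10 met the rule as higher in null (Mpo, Elane, Mmp8, S100a8 and S100a9), where 18.0% of 15885 genes did. Elane had only 16, 7 and 5 reads in the WT lungs and 24 and 41 in null lung 2 and null lung 3, so nothing is read from its call. With the 6 libraries only Mpo did not overlap between genotypes, against 16.4% of all genes in that direction, and without null lung 1 the number was 6 of 10, against 29.7%. These counts too come from a contrast known in advance.

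Mpo had 0.942, 1.88 and 4.17 CPM in null lung against 0.753, 0.895 and 0.640 CPM in WT lung, from 33, 93 and 226 reads. Its log2 fold change was 1.62 with a 95% interval of 0.21 to 3.02, and 1.99 with an interval of 1.12 to 2.86 without null lung 1. Null lung 3 was the highest library, and the value without it was 0.89. Scaled by albumin, liver RNA would bring 28.9% of the Mpo in null lung 2 and 4.56% of that in null lung 3. Elane had 0.228, 0.485 and 0.756 CPM against 0.287, 0.184 and 0.110 CPM, a log2 fold change of 1.33 with an interval of -0.07 to 2.73, and 1.64 without null lung 1. Null lung 3 was again highest, with 41 reads. Prtn3 had 0.713, 1.496 and 1.55 CPM against 1.06, 0.922 and 0.971 CPM, a log2 fold change of 0.35 with an interval of -0.56 to 1.26, and 0.62 without null lung 1. Ctsg was near the limit of detection, with 11, 8 and 23 reads in null and 13, 4 and 3 in WT, and its interval of -0.37 to 2.60 spans values below 0 and a rise of several fold.

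Of the later granule genes, Ngp had 6.59, 35.6 and 43.4 CPM in null lung and 13.6, 35.9 and 17.0 CPM in WT lung, and Camp had 2.03, 10.4 and 7.77 CPM and 4.36, 11.2 and 4.08 CPM. Their log2 fold changes were 0.36 and 0.04, and 0.83 and 0.47 without null lung 1. In both genes the genotypes overlapped with or without that library. Mmp8 had 1.26, 20.7 and 19.8 CPM against 6.01, 10.98 and 9.84 CPM, so null lung 1 was the lowest of the 6 libraries and the other 2 null libraries were the highest. Its log2 fold change was 0.63 with a 95% interval of -1.52 to 2.79, and 1.18 with an interval of 0.61 to 1.74 without null lung 1.

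Ltf moved the other way in the library that stood apart. It had 142, 17.3 and 18.3 CPM in null lung against 6.47, 18.6 and 8.72 CPM in WT lung, and 4993 of the reads of the library labelled null lung 1 were of Ltf. Its log2 fold change was 2.41 with a 95% interval of 0.05 to 4.77, and 0.66 with an interval of -0.25 to 1.57 without that library. In null lung 1 the other 9 members were at 20.3 CPM or less, and Ngp, which is made at the same stage, was at 6.59 CPM. Pglyrp1, a peptidoglycan recognition protein of the late granules, was also high there, at 95.5 CPM against 9.86 to 18.6 CPM in the other lungs. Lactoferrin is also a product of glandular and mucosal epithelium, and the squamous epithelium markers were high in this library as given above. Their part in the Ltf value was not tested.

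S100a8 had 17.8, 182 and 181 CPM in null lung against 69.2, 110 and 116 CPM in WT lung, and S100a9 had 20.3, 225 and 232 CPM against 86.3, 118 and 131 CPM. In both genes null lung 1 was the lowest library and the other 2 null libraries the highest. The log2 fold change was 0.36 for S100a8 and 0.50 for S100a9 with the 6 libraries, with 95% intervals of -1.52 to 2.24 and -1.42 to 2.43. Without null lung 1 it was 0.88 with an interval of 0.40 to 1.36 for S100a8, and 1.02 with an interval of 0.62 to 1.43 for S100a9.

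**Figure D4:**
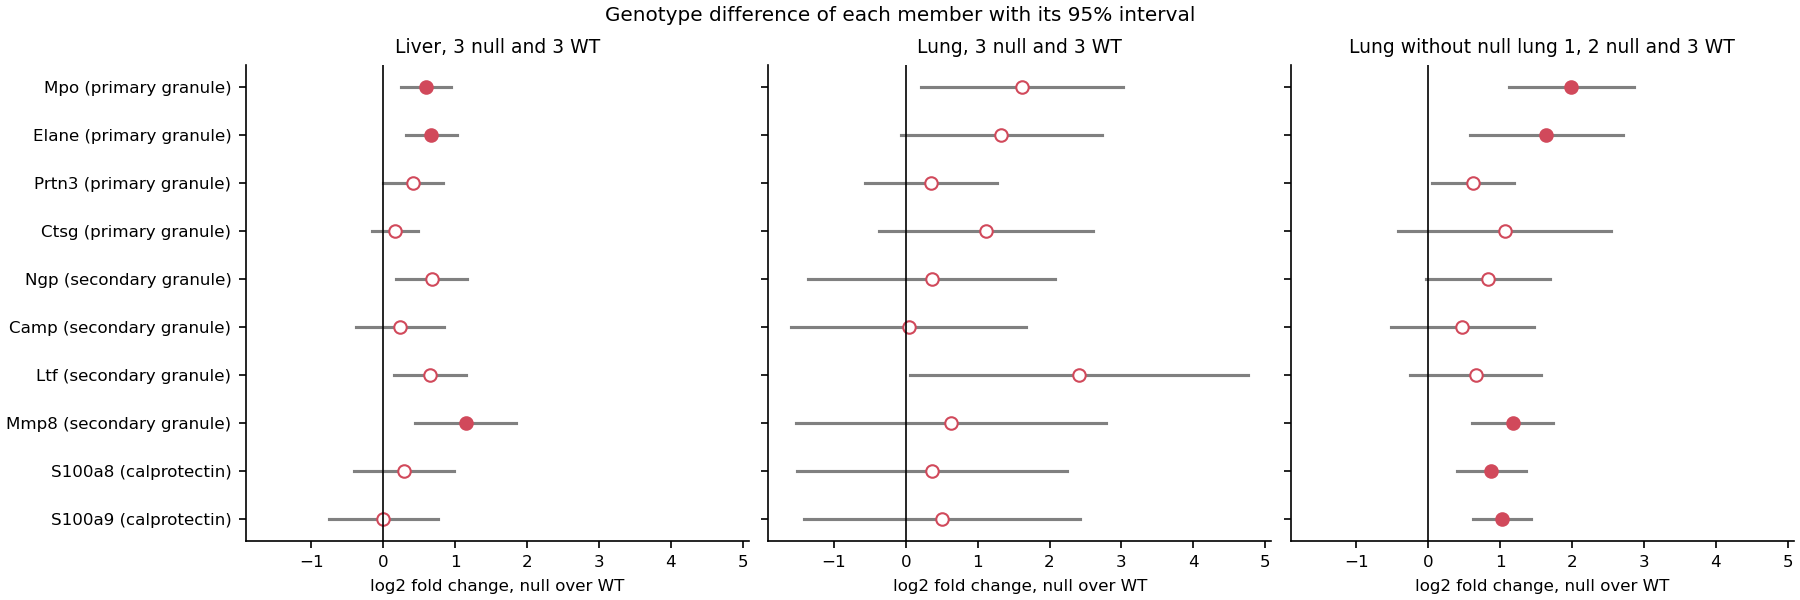
Log2 fold change of each gene, null over WT (edgeR), with its 95% interval as a grey line, in liver, in lung with 3 null libraries and in lung without the library labelled null lung 1. Filled points met the call rule, 3 of 10 in liver, 0 of 10 in lung and 5 of 10 in lung without null lung 1. Among these 5, Elane rests on few reads. The lung interval of S100a8 runs from -1.52 to 2.24, and from 0.40 to 1.36 when that library is left out.

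The genotype difference in lung was set against that in liver in a fit of the 12 libraries. Liver and lung of a number come from the same pup, but the fits of this paragraph have no block on pup. Their intervals therefore ignore that pairing, and values with the block are given further below. By edgeR 0 of 10 genes were called, where 0.371% of 16155 genes were, and DESeq2 called 0. An unadjusted p under 0.05 was found for 0 of 10, and for 2239 of all genes tested. The intervals were wide: the difference of log2 fold changes, lung minus liver, was 1.03 for Mpo with a 95% interval of -0.24 to 2.29, and 0.51 for S100a9 with an interval of -1.61 to 2.63. Without null lung 1 it was 1.41 for Mpo with an interval of 0.57 to 2.26, and 1.05 for S100a9 with an interval of 0.04 to 2.06. For Ngp, Ltf and Mmp8 it lay between 0.03 and 0.18 in that fit, and 0 of 10 members were called by edgeR, where 2.29% of all genes were called higher and 2.71% lower. In that fit 3 of 10 had an unadjusted p under 0.05, as had 3524 of the 16257 genes tested. Of the 10 values 10 were above 0, as were 7801 of those of all genes.

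Pairs of members kept their ratio of reads to different degrees. There were 0.705 to 1.02 reads of S100a8 per read of S100a9 in the 12 libraries, although the level of S100a9 varied 91.9-fold among them. Camp had 0.267 to 0.421 reads per read of Ngp in liver and 0.179 to 0.321 in lung. Elane had 0.269 to 0.308 reads per read of Mpo in the 6 livers and 0.172 to 0.381 in the 6 lungs, where few reads were counted. Prtn3 had 1.38 to 1.97 reads per read of Elane in liver but 2.05 to 8.80 in lung. The ratio between the 2 neighbouring protease genes was thus higher in each lung library than in each liver library. The lung ratios rest on 5 to 41 reads of Elane. Prtn3 also overlaps Plppr3, as given above, and the part of that overlap in the ratio was not tested. The points share their libraries and depths, and the ratios are given as a description.

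**Figure D5:**
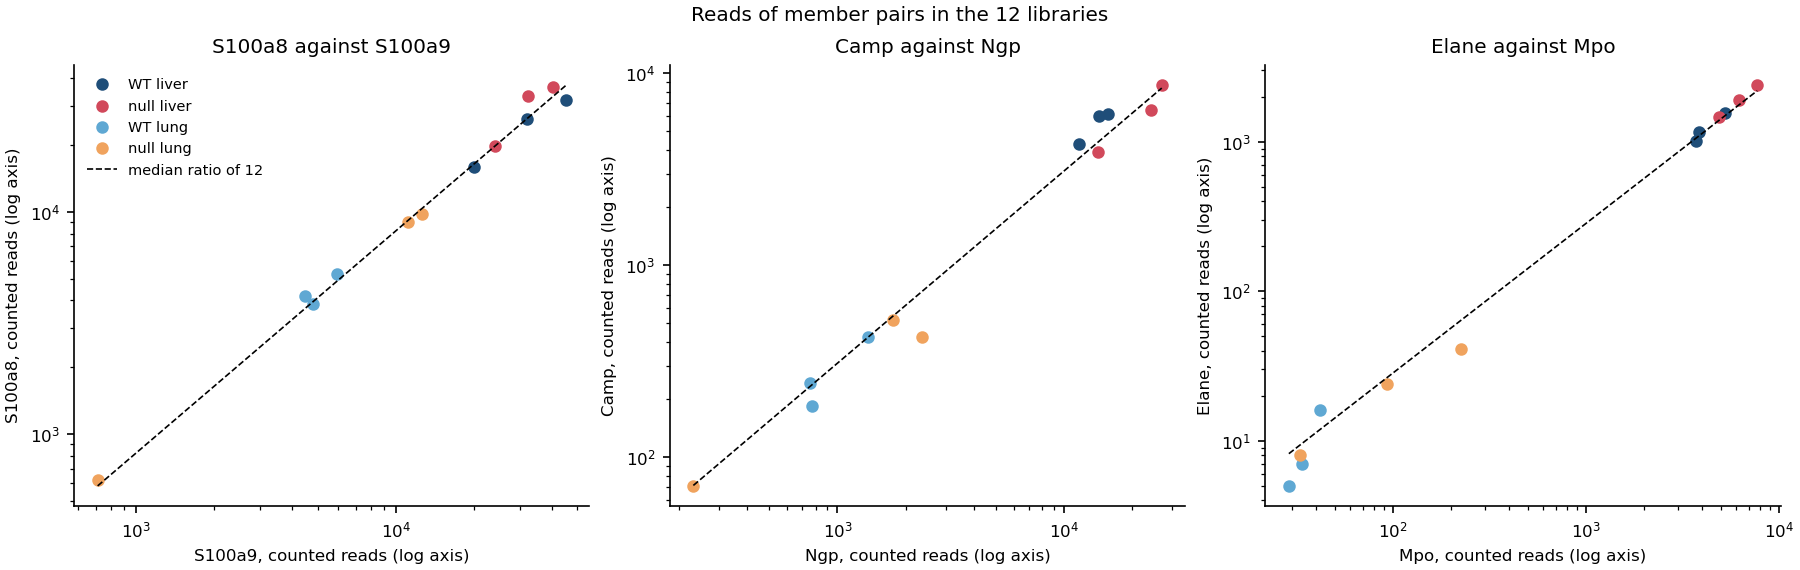
Counted reads (log axes) of S100a8 against S100a9, Camp against Ngp and Elane against Mpo, with 1 point per library coloured by group and a dashed line at the median ratio of the 12 libraries. S100a8 stays close to 0.822 reads per read of S100a9 in liver and lung, and Elane in lung scatters around the line, from 5 to 41 reads.

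The balance of granule stages was read as the log2 ratio of the summed reads of Ngp, Camp, Ltf and Mmp8 to those of Mpo, Elane, Prtn3 and Ctsg. It was 1.42, 1.90 and 1.41 in WT liver and 1.94, 1.55 and 1.36 in null liver, so the genotypes overlapped, with means of 1.58 ± 0.28 and 1.62 ± 0.30 (SD, n = 3 each). In lung it was 3.71, 5.18 and 4.47 in WT and 6.12, 4.38 and 3.69 in null, with means of 4.45 ± 0.74 and 4.73 ± 1.25 (SD). Without null lung 1 the null mean was 4.04, and the difference from WT turned from 0.28 to -0.41. Later granule reads thus outweighed primary granule reads more in each lung than in each liver, and the highest value, in null lung 1, carried the reads of Ltf described above. Together the 10 genes held 0.185% to 0.382% of the counted reads of a liver library and 0.0252% to 0.0643% of those of a lung library.

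Other genes of the lineage were followed through fixed lists, in the same libraries as the members. Of 11 other early granule genes tested in liver, 2 rose in null and 1 fell, with a median log2 fold change of 0.34. Fcnb, ficolin B of immature granulocytes, rose by 0.97 ± 0.20 (SE, adjusted p = 0.0128 by edgeR), and Srgn, the proteoglycan serglycin that holds granule proteins, rose by 0.44 ± 0.13 (adjusted p = 0.0382). Ctsc, cathepsin C, which activates the granule proteases, fell by 0.40 on the log2 scale (adjusted p = 0.0400). Of 20 other late granule and cytosol genes, 3 rose and 0 fell: Retnlg by 1.44 ± 0.39 (adjusted p = 0.0318), Olfm4, a protein of a subset of secondary granules, by 0.71 ± 0.21 (adjusted p = 0.0396), and Pglyrp1 by 0.62 ± 0.15 (adjusted p = 0.0226). The list's median was 0.42. Lcn2, lipocalin 2 of the secondary granule, was at 0.06 with a 95% interval of -0.66 to 0.78. Both shares stood near the 13.5% of all genes called higher in liver.

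Receptors, the oxidase and transcription factors were counted in the same way. Of 19 neutrophil receptors and adhesion molecules tested in liver, 1 rose, the decoy receptor Il1r2, by 1.75 ± 0.33 (SE, adjusted p = 0.00951 by edgeR), and 1 fell, the formyl peptide receptor Fpr1, by 1.33 on the log2 scale (adjusted p = 0.0153). Csf3r was at 0.32 with a 95% interval of -0.01 to 0.65, and Cxcr2, the chemokine receptor of mature neutrophils, at 0.75 with an interval of -0.04 to 1.54. Of the 6 NADPH oxidase genes tested by edgeR 0 were called, and 0 had an unadjusted p under 0.05. Of 8 other S100 genes and 5 calprotectin receptors 0 were called, with 0 and 3 at an unadjusted p under 0.05. Of all 14343 genes tested in liver, 5935 had an unadjusted p under 0.05. Of 10 granulopoiesis transcription factors, 2 rose and 1 fell in null liver. Klf5 rose by 1.45 ± 0.31 (adjusted p = 0.0155) and Runx1 by 0.67 ± 0.15 (adjusted p = 0.0179), while Myb, a factor of progenitors, fell by 0.54 on the log2 scale (adjusted p = 0.0282). Cebpa (0.62), Spi1, which encodes PU.1 (0.30), Gfi1 (0.29) and Cebpe (-0.57) were not called, and the interval of Cebpe, the factor needed for secondary granules, was -1.34 to 0.19. Of 9 granulopoietic and chemoattractant ligands tested, Cxcl12, which holds neutrophils in the marrow, fell by 1.0 on the log2 scale (adjusted p = 0.00477), and 0 rose.

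The same lists were read between WT tissues, where 37.2% of all genes tested were higher in liver and 39.8% lower. Csf3r was lower in WT liver than in WT lung, with a log2 fold change of -0.59 ± 0.13 (SE, adjusted p = 0.00281 by edgeR), and Cxcr2 was at 0.08 with a 95% interval of -0.47 to 0.62. Cebpe and Gfi1, factors of granule formation, were higher in liver, by 4.22 ± 0.22 (adjusted p = 1.40e-07) and 3.58 ± 0.27 (adjusted p = 1.96e-06). Of 11 other early granule genes 8 had a value above 0, that is higher in liver, and 3 below 0. Of the 15635 genes tested, 7614 had a value above 0 and 8021 below 0. Ms4a3, expressed in granulocyte and monocyte progenitors, was higher by 8.51 ± 0.26. It had 485, 461 and 646 reads in WT liver but 3, 1 and 3 in WT lung. It passed the filter on low counts through the liver libraries, so its value is given without a test. Cst7, with 7, 4 and 2 reads in WT lung, was higher by 5.34 ± 0.31, and Fcnb by 5.30 ± 0.22. Prss57 had 9, 8 and 6 reads in WT lung, and Nkg7 had 7, 6 and 15. Cst7, Prss57 and Nkg7 are likewise counted by direction only, without a test. The 3 lower genes were Lyz2, lysozyme of granulocytes and macrophages, at -2.46 ± 0.22, Ctsc at -1.05 ± 0.11 and Srgn at -0.36 ± 0.10. Of 20 late granule and cytosol genes 15 were higher and 2 lower. Itgb2l was higher by 3.52 ± 0.23, Hp, which hepatocytes also make, by 4.27 ± 0.24, and Lcn2 by 1.30 ± 0.31 (adjusted p = 0.00364), whereas Arg2 was lower, at -4.02 ± 0.26. Of 19 receptors 8 were higher, a share near that of all genes, with Trem3 at 2.38 and Fcgr4 at 2.11, and 3 lower, and of 6 oxidase genes 5 were higher, with Ncf4 at 2.33, Rac2 at 2.27 and Cybb at 1.41. The other S100 genes went against S100a8 and S100a9: of 10 tested, 10 had a value below 0, with S100a14 at -8.40, S100g at -4.77 and S100a6 at -3.71. S100a14 had 4 reads in each WT liver, so its value is given without a test. Ager, which encodes the receptor RAGE that binds calprotectin and is abundant in alveolar epithelium, was at -7.75 ± 0.31 (adjusted p = 3.10e-08). Tlr4, the other main receptor, was at 0.18 with an interval of -0.14 to 0.51, and its partner Ly96 was higher in liver by 0.50 ± 0.21 (adjusted p = 0.0473). Of 10 ligands 8 had a value above 0 and 2 below 0, with Il1a at 4.62 and Cxcl1 at 3.20. Cxcl5, among the 8, had 0, 12 and 5 reads in WT lung, so it is counted by direction only. The lowest was Csf2, the growth factor GM-CSF, with 0 reads in each liver library and 144, 90 and 106 in WT lung. Its fitted log2 fold change of -9.48 is therefore not a measured ratio.

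In lung with the 6 libraries, edgeR called 0 genes of each of these lists between genotypes. Of 20 late granule and cytosol genes 2 had an unadjusted p under 0.05, against 3898 of the 15591 genes tested. Without null lung 1, 9 of 20 late granule and cytosol genes rose in null and 2 fell, against 18.0% and 19.0% of all genes. Retnlg rose by 1.56 ± 0.18 (SE, adjusted p = 0.00123), Olfm4 by 0.90 ± 0.15 (adjusted p = 0.00378), and Pglyrp1 by 0.74 ± 0.14 (adjusted p = 0.00620), while Lcn2 fell by 0.56 on the log2 scale (adjusted p = 0.0367). Of 8 early granule genes 3 rose and 1 fell, and Fcnb rose by 1.18 ± 0.29 (adjusted p = 0.0172). Of 11 other S100 genes 0 rose and 5 fell. Csf3r was at -0.07 with a 95% interval of -0.40 to 0.26, while the log2 fold change of S100a9 was 1.02. Of 12 ligands 0 rose and 6 fell, of 10 transcription factors 4 rose and 1 fell, and of 6 oxidase genes 0 rose and 1 fell. Of 19 receptors 2 rose and 1 fell, and Il1r2 was at 2.29 ± 0.21 (adjusted p = 0.000732).

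Markers of other cells were read beside these results. In null liver the 8 eosinophil markers, granule proteins among them, summed to 70.0 to 112 CPM against 44.5 to 62.1 CPM in WT liver. Prg2 had the most reads of the 8 in each liver library, so this sum follows Prg2 in large part. Its reads were 906, 843 and 1317 in WT liver and 2436, 2378 and 1354 in null liver. Taken singly, 2 markers rose, 1 fell and 5 were not called, with a median log2 fold change of 0.14. Prg2 rose by 1.05 ± 0.20 (SE, adjusted p = 0.00957 by edgeR) and Epx by 1.44 ± 0.34 (adjusted p = 0.0196). Ccr3 fell by 1.99 on the log2 scale, but it had few reads, 16, 25 and 26 in WT liver and 2, 7 and 7 in null liver. The markers without a call lay on both sides of 0: Il5ra (-0.70), Ear2 (-0.68), Prg3 (0.095), Ear1 (0.18) and Ear6 (0.20). The 8 stem and progenitor markers summed to 108 to 142 CPM against 156 to 167 CPM. Of these 8, 4 fell, with Hlf at -1.32, Mecom at -1.07 and Meis1 at -0.82, and 1 rose, Kit at 0.54. Gata2 (0.69) and Cd34 (0.31) were above 0 and not called. Hlf had the most reads of the 8 in each WT liver, so the sum follows Hlf in large part. Its reads were 2467, 1662 and 2338 in WT liver and 824, 1044 and 648 in null liver. Monocyte and macrophage markers overlapped, at 1147 to 1447 CPM against 1194 to 1240 CPM, with 2 of 14 higher and 2 lower: the chemokine receptors Cx3cr1 and Ccr2 of monocytes fell by 1.76 and 1.58 on the log2 scale, and Adgre1, which encodes F4/80, rose by 0.54. Of 9 erythroid markers 1 rose and 1 fell, Klf1 by 0.88, and of 9 lymphocyte markers the pre-B gene Igll1 rose by 0.65, while Ms4a1 and Ncr1 fell by 2.45 and 2.88. Ncr1 rests on few reads, with 11 in each WT liver and 1, 1 and 2 in null liver. Megakaryocyte, mast cell, squamous and hepatocyte markers had 0 calls by edgeR. Of these lists 0, 1, 0 and 1 had an unadjusted p under 0.05, against 5935 of the 14343 genes tested. Of 6 lung epithelium markers 1 fell (Sftpa1, by 1.87). Summed levels overlapped for hepatocyte markers, at 152900 to 207200 CPM against 133500 to 183500 CPM. By Xist and Ddx3y reads, 1 of 3 WT and 2 of 3 null pups were female, and with sex in the model 1 member (Elane) met the call rule in liver. In lung without null lung 1, the 9 mast cell and basophil markers summed to 29.7 and 33.3 CPM in null against 22.9 to 26.8 CPM in WT, and 3 of 8 tested rose (Mcpt8, Mcpt4 and Prss34) and 1 fell (Tpsab1). The 8 eosinophil markers summed to 4.83 and 4.56 CPM against 8.66 to 10.9 CPM, and of 4 tested Prg2 rose and Ear1 and Ear2 fell. The 8 hepatocyte markers summed to 414 and 140 CPM against 25.6 to 400 CPM, with 8 of 8 values above 0, a median log2 fold change of 0.79 and 0 called (0 at an unadjusted p under 0.05). Of all 15885 genes tested in that fit, 7820 had values above 0 and 7646 an unadjusted p under 0.05. Stem and progenitor markers summed to 710 and 613 CPM against 524 to 564 CPM, with 2 of 8 higher and 1 lower. Of 13 monocyte and macrophage markers 2 were higher and 2 lower, of 9 erythroid markers 2 and 1, of 10 squamous markers 1 and 1, of 9 lung epithelium markers 1 and 1, of 6 megakaryocyte markers 0 and 1, and of 9 lymphocyte markers 0 and 0 (1 at an unadjusted p under 0.05). The part of these in the members' values was not tested.

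The genes whose levels followed the members most closely from library to library within the groups were sought over the 12 libraries, after removing each group's mean. For the mean of the 6 later granule and calprotectin genes they were BC100530 (Pearson's r = 0.985), Ncf4 (0.983), Itgb2l (0.964), Arrb2 (0.962), Ncf1 (0.960), Arl6ip1 (0.954), Fcnb (0.953) and Rac1 (0.951). Ncf4, Ncf1 and Rac1 belong to the NADPH oxidase of phagocytes. Without null lung 1, 3 of these 8 were still among the closest 8. For the mean of the 4 primary granule genes they included Adrm1 (0.963), Rps6kb2 (0.927), Csnk1g2 (0.912), Gm16596 (0.906), 4933430I17Rik (0.905), Snx11 (0.903) and Esr2 (0.901), none of them on the lists, and 2 of 8 remained without null lung 1. These values are a description over libraries that share tissue and depth.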

How the data were processed

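Polyadenylated RNA of liver and lung from 3 WT and 3 null newborn pups was sequenced from stranded libraries. The authors deposited raw counts per gene for each library; their processing notes name FastQC, STAR 2.5.2a, DESeq2 and the build mm10, and the counter and its strand setting are not given in the sources used here. Each library had 1 column of counts, with 0 other columns of per-sample values. Of the 24421 gene names 27 had been turned into dates, and 3 list genes (Ly6g, Ahsp and Trac) had no row under their symbol and were not used here. Counts were tested with edgeR 4.0.16 in R 4.3.3 (quasi-likelihood, default filter on low counts, TMM, Benjamini-Hochberg over all genes tested) within each tissue, between WT tissues and as an interaction over 12 libraries. A call was an adjusted p under 0.05 with at least 1.2-fold (adjusted p alone for the interaction). Levels are TMM-scaled CPM, and likeness used log2(CPM + 0.5). DESeq2 1.42.0, other scalings, filters and left-out libraries were alternatives, and the scripts were tested on simulated data. The members and lists were chosen with earlier results of these data known. Named were the members, up to 3 called genes of each list by size in each comparison, and Csf3r, Cebpe, Gfi1, Cebpa, Spi1, Lcn2, Cxcr2 and Man1a2, and the 8 closest genes by likeness. Pglyrp1 in lung, Retnlg, Olfm4, Fcnb, Il1r2 and marker genes in the lung fit without null lung 1, Tlr4, and Sftpc, Krt13 and Alb were named after their values were seen. So were Kit, Gata2, Cd34, Il5ra and Ear2 in liver, and Prss57, Nkg7 and Cxcl5 between WT tissues. A few genes that the rule names are not reported here.

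The study took both organs from each pup. Deviations from the group mean of liver and lung with the same number correlated at 0.263, 0.218 and 0.184 in WT and at 0.468, 0.366 and 0.421 in null, so the numbers pair the organs; the block on pup changed no member's call between WT tissues. No 2 libraries of a group agreed within counting error. Precision is set by 3 pups per group and, for primary granule genes in lung, by few reads (3 reads are 0.0538 to 0.0856 CPM in a lung library).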

Additional observations from a re-analysis of the deposited data

Results flagged for a closer look

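Among the named lists, 2 genes had a genotype difference in lung that differed from that in liver by the test of that difference over the 12 libraries (edgeR's quasi-likelihood interaction test, without the block on pup), and neither is a granule gene. Liver and lung of a number come from the same pup, and with the block on pup both calls were lost: Cxcr4 was at -2.49 (adjusted p = 0.13) and Hopx at -1.31 (adjusted p = 0.105). With the block and without null lung 1 and null liver 1, a fit chosen after seeing the data, they were at -2.02 (adjusted p = 0.00672) and -1.34 (adjusted p = 0.00846). Cxcr4, the receptor that holds neutrophils and their precursors in blood-forming tissue, had a difference of log2 fold changes, lung minus liver, of -2.52 ± 0.40 (SE, adjusted p = 0.0341), and -2.28 without null lung 1 (adjusted p = 0.00720). Its levels were 42.3, 42.4 and 33.0 CPM in WT lung and 6.68, 10.7 and 12.3 CPM in null lung, lower in 3 of 3 null lungs, against 25.2, 24.6 and 23.1 CPM in WT liver and 46.6, 37.4 and 21.9 CPM in null liver. Hopx, a marker of lung epithelium, had a difference of -1.31 ± 0.22 (SE, adjusted p = 0.0454), and -1.20 without null lung 1 (adjusted p = 0.0141).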

How the results depend on the processing

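Of the 10 members, Elane and Ctsg rest on few lung reads between WT tissues. Mmp8 lost its call in 3 fits that left out a library, and 8 members were tested and called with at least 10 counts in every library. The number of members called in liver (3) was 5 with DESeq2, 0 with the 12 libraries in 1 fit and 1 with sex as a covariate, and ranged from 0 to 5 when a library was left out. In lung (0) it was 1 with DESeq2, 1 with the 12 libraries in 1 fit and 6 without null lung 1 and with sex as a covariate, and ranged from 0 to 5 when a library was left out. The sex covariate and the fits without null lung 1 and another change together were chosen after seeing the data. The replicate block between genotypes left 3 members called in liver and 0 in lung. It called 3304 genes in liver against 3856 without it, and 0 in lung against 51. Same-numbered WT and null libraries correlated at -0.024, -0.002 and 0.143 in liver and -0.043, -0.039 and 0.099 in lung, so the numbers do not pair the genotypes. Of 624 member values under alternatives, 34 had the opposite sign, and 0 of these were of a member called in the fit reported. With the replicate block in lung these were Camp (-0.083), S100a8 (-0.14) and S100a9 (-0.033), and for lung minus liver S100a8 (-0.37) and S100a9 (-0.02). With at least 10 counts S100a9 in liver was -0.03. Without null lung 1 and null liver 1, with the replicate block, lung minus liver was 0.23 for Prtn3, 0.46 for Ngp, 0.65 for Camp and 0.15 for Mmp8. Leaving out each library, liver values ran from -0.049 to 0.435 for Camp and -0.27 to 0.43 for S100a9, lung values from -0.075 to 0.90 for Ngp and -0.40 to 0.67 for Camp, and lung minus liver from -0.28 to 0.22 for Prtn3, -0.72 to 0.24 for Ngp, -0.61 to 0.47 for Camp, -0.89 to 0.054 for Mmp8 and -0.25 to 0.62 for S100a8. The difference in stage balance, null minus WT, was 0.04 in liver (-0.12 to 0.20 leaving out a library) and 0.28 in lung (-0.41 to 0.80), and from means of logs 0.20 in liver and -0.055 in lung. Of the 8 genes most like the primary members 3 remained with log2(CPM + 2), and 0 to 6 leaving out a library, and of those most like the other members 5, and 3 to 6. The cause was not tested for any of these. Counts over all genes moved more: 51 genes called in lung became 2355 with DESeq2, 2 with RLE factors, 5 without the most abundant genes, 210 with at least 10 counts, 0 with no filter, 2284 with the 12 libraries in 1 fit, 0 with sex, 5899 without null lung 1 and with sex, and 0 to 5881 leaving out a library. In liver 3856 became 1921 with the 12 libraries in 1 fit and 1641 to 3451 leaving out a library. For lung minus liver 60 became 610 with DESeq2, 92 with at least 10 counts, 33 with no filter, 0 with the replicate block and 0 to 813 leaving out a library.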

Other observations

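Stfa1, a stefin of the neutrophil cytosol, was at 1.16 CPM in WT liver 2 and 0.158 CPM in WT lung 2, which came from the same pup, against 251 to 541 CPM in the other 5 livers and 4.94 to 64.8 CPM in the other 5 lungs. Its close relatives Stfa2, Stfa2l1 and Stfa3 were at 143, 136 and 187 CPM in WT liver 2, within the range of the other livers and not above it. The cause of the low Stfa1 counts in this pup was not tested. WT liver 2 was also the highest liver for S100a9 (1868 CPM).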
